A study of Mus musculus with 12 samples.

Results

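Thermogenic and beige fat genes were followed across mouse adipocyte models made in culture and fat tissue. The list held 10 genes, chosen by name: the uncoupling protein genes Ucp1, Ucp2 and Ucp3, the transcriptional regulators Ppargc1a, Prdm16 and Ebf2, the deiodinase gene Dio2, the complex IV subunit genes Cox7a1 and Cox8b, and Cpt1b. Of these, 8 were measured by a probe set assigned to that gene alone, out of 19938 genes measured in that way on the arrays. Ucp2 had no such probe set in the annotation used here and Cpt1b shared its probe set with another gene symbol, so both were not analysed here. Where a gene had several probe sets, the brightest over the 12 arrays stood for it.

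The study hybridised total RNA to Affymetrix mouse gene arrays, with 3 arrays in each of 4 groups that the submitters describe as biological triplicates. The 3T3-L1 group is an established mouse preadipocyte line differentiated to adipocytes. The PMEF group came from primary mouse embryonic fibroblasts, and the ES group from mouse embryonic stem cells, both differentiated to adipocytes. The fourth group, eWAT (the usual abbreviation for epididymal white adipose tissue), was whole tissue of healthy wild-type mice. Age, sex and strain of the mice, the culture conditions and the number of independent cultures or lines were not given in the sources used here. No group was stated to have received cold, a β-adrenergic agonist or another thermogenic stimulus, and none was labelled as brown or beige fat.

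Brown and beige adipocytes make heat by burning fatty acids in mitochondria whose proton gradient is short-circuited by uncoupling protein 1, the product of Ucp1. Cold acts through noradrenaline, β-adrenergic receptors and cyclic AMP, which raise Ucp1, the coactivator gene Ppargc1a and Dio2, whose enzyme makes active thyroid hormone inside the cell. Prdm16 and Ebf2 encode transcription factors that help to set brown or beige identity, and Cox7a1 and Cox8b encode subunit isoforms of respiratory complex IV that are abundant in muscle, heart and brown fat. White depots such as eWAT normally hold few beige cells.

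The DNA just upstream of the start site is shown for the measured genes Ucp1, Ucp3, Ppargc1a and Dio2. Their windows hold letters associated with cyclic AMP or nuclear receptor control. They are shown for these letters, so the presence of the letters here says nothing about the levels described next. Each run is the 250 bases before the RefSeq transcription start on GRCm38.p6, written along the gene's own strand. These are chr8:83290098-83290347 on the plus strand for Ucp1, chr7:100472741-100472990 on the plus strand for Ucp3, chr5:51567726-51567975 on the minus strand for Ppargc1a and chr12:90739039-90739288 on the minus strand for Dio2. Capitals mark the cyclic AMP response element core TGACG, the nuclear receptor core motif AGGTCA and the TATA box letters on either strand. The letters searched for the last were TATAAA.
Ucp1: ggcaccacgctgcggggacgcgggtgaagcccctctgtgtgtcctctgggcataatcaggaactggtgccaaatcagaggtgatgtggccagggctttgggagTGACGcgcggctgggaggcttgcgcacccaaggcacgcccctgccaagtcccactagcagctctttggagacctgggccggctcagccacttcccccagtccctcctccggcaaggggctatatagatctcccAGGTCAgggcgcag
Ucp3: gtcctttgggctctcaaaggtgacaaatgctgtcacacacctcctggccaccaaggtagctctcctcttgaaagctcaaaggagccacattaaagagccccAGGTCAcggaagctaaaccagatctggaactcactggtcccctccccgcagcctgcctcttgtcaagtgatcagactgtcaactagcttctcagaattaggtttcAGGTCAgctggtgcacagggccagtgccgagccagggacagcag
Ppargc1a: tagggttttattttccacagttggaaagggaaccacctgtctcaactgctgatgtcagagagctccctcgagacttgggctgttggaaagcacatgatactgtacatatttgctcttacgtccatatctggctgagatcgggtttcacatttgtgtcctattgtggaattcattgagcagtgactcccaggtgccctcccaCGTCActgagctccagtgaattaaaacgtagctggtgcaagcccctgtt
Dio2: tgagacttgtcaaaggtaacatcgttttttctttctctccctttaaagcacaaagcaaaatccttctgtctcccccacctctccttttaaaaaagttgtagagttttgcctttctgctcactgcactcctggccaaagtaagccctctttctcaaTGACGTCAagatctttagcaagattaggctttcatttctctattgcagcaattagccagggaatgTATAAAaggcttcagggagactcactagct

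The Ucp1 window held TGACG once, starting at -147 from the start site, and AGGTCA once, at -14. The Ucp3 window held AGGTCA at -149 and -44 and no TGACG. The Ppargc1a window held TGACG once, on the opposite strand at -49. In Dio2, TGACG occurred on both strands within the full palindrome TGACGTCA at -95, and TATAAA lay at -30. Searched on both strands, these letters were not rare. TGACG was present in 17.8% of 32851 promoter windows of this length, AGGTCA in 4607 of these windows and TATAAA in 12.4%, while the palindrome TGACGTCA was present in 1.55%. The E-box CAGCTG, searched in the same way, was in 13.0% of windows and in those of Ucp3 (at -40, overlapping its second AGGTCA) and Cox8b (at -19). The window of Ucp2, whose level was not analysed here, held CAGCTG at -225 and TGACG on the opposite strand at -62. The windows of Cox7a1 and Prdm16 held none of these motifs. RefSeq windows were found for 8 of the 10 listed genes. A match describes the letters only, and the arrays measured no factor binding.

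The labelled cell types were checked against marker lists. The mean log2 level of 12 adipocyte genes lay between 10.58 and 10.62 in the 3T3-L1 arrays, 10.82 and 10.90 in PMEF, 11.38 and 11.39 in ES and 11.75 and 11.91 in eWAT. The leptin gene Lep was the marker furthest from tissue level, at 4.52 ± 0.37 (SD, n = 3) in 3T3-L1 adipocytes and 10.44 ± 0.62 in eWAT. Macrophage genes (10) averaged 8.99 to 10.003 in the eWAT arrays and 5.07 to 5.92 in the cultures, and endothelial genes (6) 9.38 to 9.73 and 4.90 to 5.34. The averages of both lists were thus higher in every eWAT array than in any culture array, although single genes could differ (Cd68 averaged 10.42 in 3T3-L1 adipocytes and 9.49 in eWAT). Fewer cells of a type and less RNA per cell cannot be told apart in these bulk samples.

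One eWAT array stood apart from its group. Over all genes, eWAT array 1 differed from the mean of the other eWAT arrays by a root mean square of 0.2465 log2 units, against 0.1395 to 0.1932 for the remaining 11 arrays compared in the same way. Ucp1 was the gene lying furthest above both other eWAT arrays in it. The macrophage list averaged 8.99 in array 1 against 9.66 and 10.003 in the others, the endothelial list 9.73 against 9.44 and 9.38, and the adipocyte list 11.91 against 11.76 and 11.75. Whether the makeup of that tissue sample set its thermogenic levels was not tested, so results that rest on it are given with and without it.

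Across the 8 measured genes, eWAT had the highest mean for 4 (Ucp1, Ucp3, Ebf2 and Prdm16). The highest mean was in 3T3-L1 adipocytes for Ppargc1a and Cox8b, and in ES adipocytes for Cox7a1 and Dio2. The PMEF adipocytes were highest for none. Group means spanned from 1.004 log2 units for Dio2, 2.01-fold, to 3.87 for Ucp1, 14.6-fold. Differences were tested with limma and p-values were adjusted by the Benjamini-Hochberg method over all genes, with a difference called at an adjusted p under 0.05. The step from the highest group to the next was not called for Ucp1, Cox8b and Dio2 (adjusted p = 0.0902, 0.969 and 0.222). "Rose" and "fell" below mean called higher or called lower in the group named first, not a change over time.

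**Figure D1:**
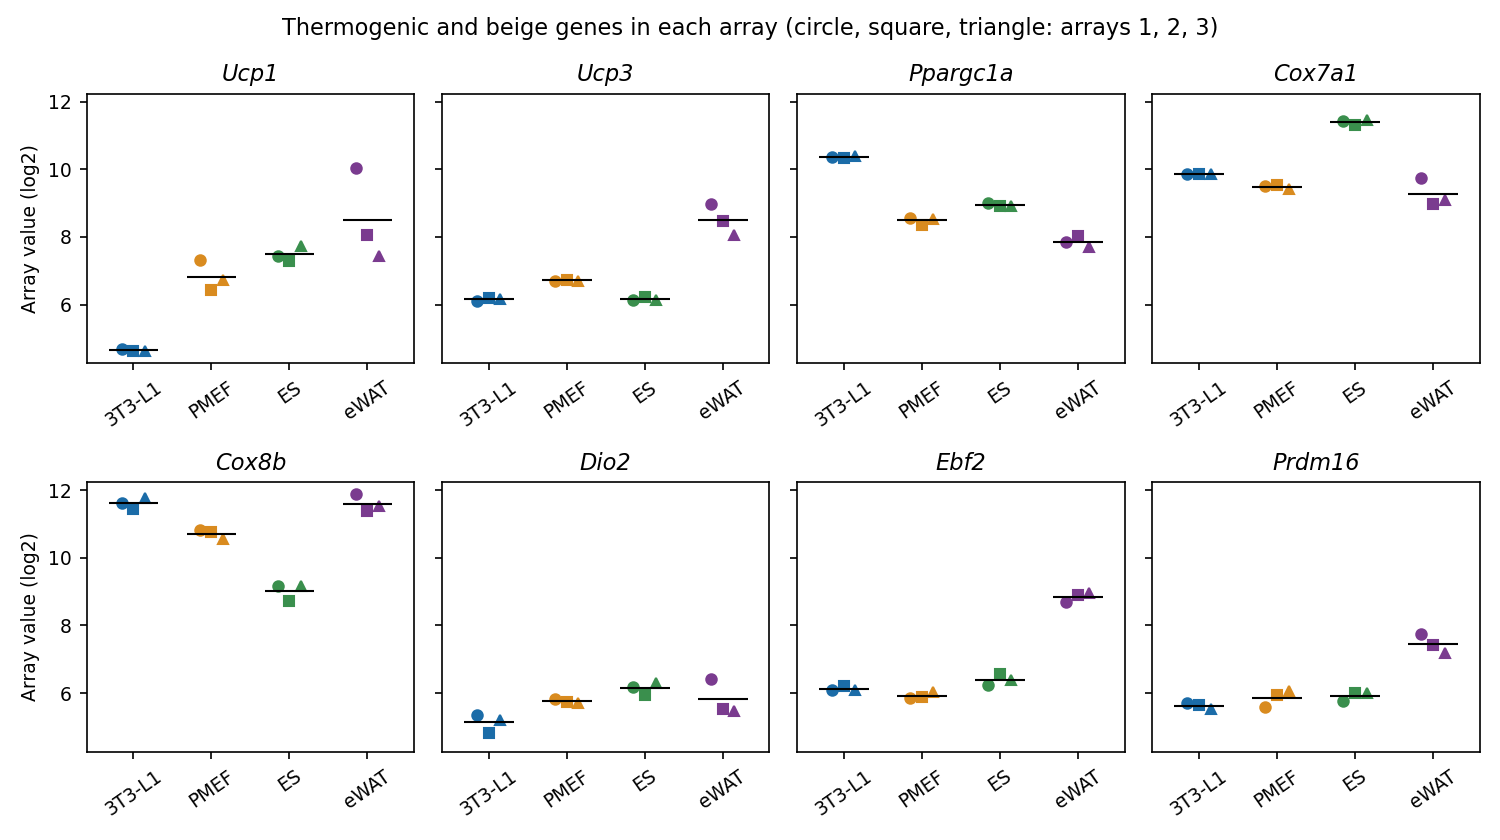
Array values (log2) of the 8 measured thermogenic and beige genes in the 12 arrays, 1 panel a gene, with circles, squares and triangles for arrays 1, 2 and 3 of each group and a black line at the group mean. Ucp1, Ucp3, Ebf2 and Prdm16 had their highest mean in eWAT, Ppargc1a and Cox8b in 3T3-L1 adipocytes, and Cox7a1 and Dio2 in ES adipocytes. For Ucp1, Cox8b and Dio2 the difference from the next group was not called.

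In 3T3-L1 adipocytes against eWAT, 7 of the 8 genes were called, 2 higher and 5 lower. Of all genes, 53.3% were called, 30.8% higher and 22.5% lower. In PMEF adipocytes against eWAT, 6 were called, 1 higher and 5 lower, beside 46.3% of all genes, 24.7% higher and 21.6% lower. In ES adipocytes against eWAT, 6 were called, 2 higher and 4 lower, beside 49.7% of all genes, 28.8% higher and 20.9% lower. Counting calls of at least 2-fold, 5, 4 and 6 of the 8 genes qualified, against 14.5%, 10.4% and 10.2% of all genes. The median difference of the 8 genes was -1.25, -1.24 and -1.27 log2 units, and that of all genes 0.05, 0.05 and 0.04. These 3 comparisons share the same eWAT arrays, so they are not independent of each other. Shares of all genes, here and below, are for the values as deposited with all arrays in. Counts under another scaling have no such share beside them.

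Between PMEF and 3T3-L1 adipocytes, 5 of the 8 genes were called, 3 higher and 2 lower in PMEF, where 50.1% of all genes were called, 22.3% higher and 27.8% lower. Between ES and 3T3-L1 adipocytes 6 were called, 4 higher and 2 lower in ES, beside 43.4% of all genes, 20.4% higher and 23.0% lower. Between ES and PMEF adipocytes 5 were called, 3 higher and 2 lower in ES, beside 42.6% of all genes, 23.6% higher and 19.0% lower. Calls of at least 2-fold numbered 2, 5 and 2, against 12.5%, 8.14% and 6.71% of all genes. The count for PMEF against 3T3-L1 adipocytes lay closest to its background, and the directions differed by gene, as the values below show.

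**Figure D2:**
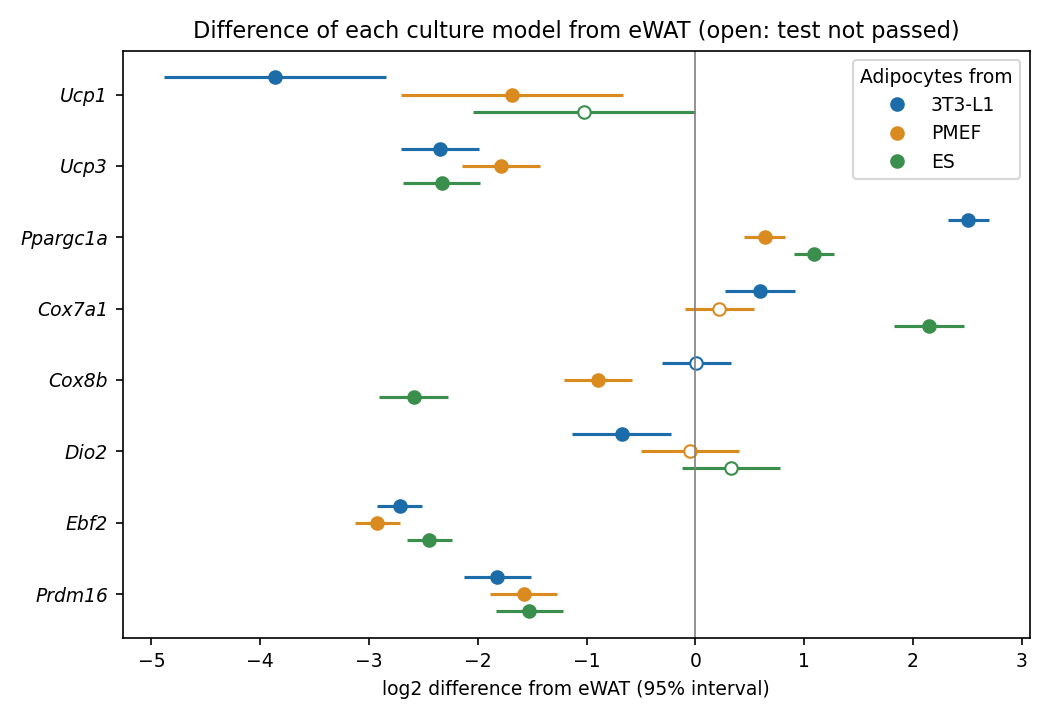
Difference of each culture model from eWAT on the log2 scale for the 8 measured genes, with lines for the 95% interval of the limma fit (3 arrays a group) and open circles where the test was not passed. Ucp3, Ebf2 and Prdm16 lay left of 0 for each model, Ppargc1a lay right of 0, and the models spread apart for Ucp1, Cox7a1 and Cox8b.

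Ucp1, the gene of the proton leak that defines brown and beige fat, was lowest in 3T3-L1 adipocytes. Its log2 values there were 4.69, 4.62 and 4.63. In PMEF adipocytes they were 7.33, 6.43 and 6.72, and in ES adipocytes 7.44, 7.30 and 7.74. The eWAT arrays read 10.05, 8.05 and 7.45, the widest spread of any member in any group, with array 1 well above the others and array 3 within the range of the ES arrays. The 3T3-L1 values lay under 5.36, below which the dimmest 33.3% of genes averaged, so folds against that group rest on a low signal.

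The 3T3-L1 adipocytes lay below eWAT by a log2 difference of -3.87 ± 0.47 (SE, n = 3 arrays a group), 14.6-fold, with an adjusted p of 8.5e-06. Without eWAT array 1 the difference was -3.10 (adjusted p = 1.47e-07). The PMEF difference from eWAT was -1.69 ± 0.47 (adjusted p = 0.00952) and shrank to -0.92 without that array (adjusted p = 0.00566). The ES difference, -1.02 with a 95% interval from -2.04 to just under 0, was not called (adjusted p = 0.0902). It was -0.26 without eWAT array 1 (adjusted p = 0.397) and -1.56 without eWAT array 3, when it passed (adjusted p = 0.00979). With all arrays it also passed after centring on reference genes (-1.18, adjusted p = 0.046), so the call depended on single tissue arrays and on the scaling. The reference genes were not flat themselves. Of 9 measured, including Hprt, which the centring left out, 7 were called in ES adipocytes against eWAT, beside 49.7% of all genes. Pgk1, which the centring used, averaged 12.4 in ES adipocytes and 10.4 in eWAT.

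Among the models, Ucp1 was 4.53-fold higher in PMEF than in 3T3-L1 adipocytes, a log2 difference of 2.18 ± 0.47 (adjusted p = 0.00143). It was 7.18-fold higher in ES than in 3T3-L1 adipocytes, 2.84 ± 0.47 (adjusted p = 0.000215). No array of either model overlapped the 3T3-L1 arrays. ES and PMEF adipocytes overlapped and their difference of 0.67 was not called (adjusted p = 0.29), though it passed when eWAT array 1, whose spread enters the shared variance, was left out (adjusted p = 0.0195). It also passed with the arrays of both groups alone (adjusted p = 0.0309). In the order eWAT, ES, PMEF, 3T3-L1, only the last step passed the test.

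The genes whose profile over the 12 arrays was most like that of Ucp1 were Atp9a, Abcd2 and Irs3, at root mean square differences of 0.59, 0.59 and 0.60 log2 units after centring each gene. This is a description without a test, and a looser match than for the other members, whose nearest genes lay within 0.35.

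Ucp3, an uncoupling protein of muscle and brown fat whose role in heat production is less settled, was high in tissue alone. Its eWAT values were 8.99, 8.46 and 8.04. The 3T3-L1 arrays read 6.10, 6.19 and 6.17, the ES arrays 6.13, 6.24 and 6.13, and the PMEF arrays 6.71, 6.72 and 6.70. Every eWAT array lay above every culture array, and the PMEF arrays lay above those of the other models without overlap.

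Against eWAT the log2 difference of Ucp3 was -2.35 ± 0.16 in 3T3-L1 adipocytes (adjusted p = 3.46e-08), -1.79 ± 0.16 in PMEF (adjusted p = 8.11e-07) and -2.33 ± 0.16 in ES (adjusted p = 6.22e-08). PMEF adipocytes exceeded 3T3-L1 adipocytes by 0.56 ± 0.16 (adjusted p = 0.0111), a call lost when each array was centred on its median (0.34, adjusted p = 0.0851). The ES minus PMEF difference was -0.55 ± 0.16 (adjusted p = 0.0156). ES and 3T3-L1 adipocytes differed by 0.01 with a 95% interval from -0.34 to 0.37 (adjusted p = 0.96). The nearest profiles were those of Erg, Fmo5 and Sdr42e1, at 0.18, 0.19 and 0.20.

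Ucp3 is also a skeletal muscle gene, so muscle markers were read beside it. The 20 skeletal and heart muscle genes averaged 5.67 to 5.72 in the eWAT arrays and 5.49 to 5.84 in the culture arrays. Against eWAT, 3 of the 20 rose and 2 fell in 3T3-L1 adipocytes, 8 rose and 1 fell in PMEF adipocytes, and 2 rose and 1 fell in ES adipocytes. Of all genes, 53.3%, 46.3% and 49.7% were called with the values as deposited. The 3T3-L1 counts became 11 and 1 after median centring and 0 and 4 on reference genes, and the ES counts 1 and 3 on reference genes. Creatine kinase gene Ckm averaged 6.11 in eWAT and 6.10 to 6.22 in the cultures, while the myosin light chain gene Myl1 stood out in tissue at 9.39 ± 0.22 against 5.22 to 6.67.

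Among related mitochondrial carrier genes, the adenine nucleotide translocators Slc25a4 and Slc25a5 rose in each model against eWAT. Slc25a4 differed by 0.97, 0.31 and 0.65 in 3T3-L1, PMEF and ES adipocytes, and Slc25a5 by 0.63, 0.27 and 0.45. Slc25a30, a kidney-type uncoupling protein relative, rose in 3T3-L1 adipocytes (1.01), fell in PMEF adipocytes (-0.76) and stood at -0.14 in ES adipocytes (adjusted p = 0.287). The carnitine-acylcarnitine carrier Slc25a20 was lower in 3T3-L1 adipocytes (-0.29, not called after median centring) and higher in PMEF adipocytes (0.48). Slc25a14 passed in 3T3-L1 adipocytes alone (0.26, not called after centring on reference genes), and Slc25a27 in no comparison with eWAT as deposited (0.29 in 3T3-L1 adipocytes after median centring, when it was called).

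Ppargc1a encodes a coactivator that switches on mitochondrial biogenesis and, in brown fat, Ucp1. It was highest in 3T3-L1 adipocytes, the group with the lowest Ucp1. Its values were 10.37, 10.34 and 10.39 there. ES adipocytes had 8.997, 8.93 and 8.91, PMEF adipocytes 8.57, 8.37 and 8.54, and eWAT 7.85, 8.02 and 7.70. No groups overlapped, and each step of the order 3T3-L1, ES, PMEF, eWAT passed the test.

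Against eWAT, Ppargc1a was 5.69-fold higher in 3T3-L1 adipocytes, a log2 difference of 2.51 ± 0.09 (adjusted p = 2.66e-11). It was higher by 1.09 ± 0.09 in ES (adjusted p = 1.93e-07) and by 0.64 ± 0.09 in PMEF adipocytes (adjusted p = 3.39e-05). Below 3T3-L1 adipocytes lay PMEF by -1.87 (adjusted p = 5.91e-10) and ES by -1.42 (adjusted p = 1.65e-08), and ES lay above PMEF by 0.45 (adjusted p = 0.000732). A dimmer second probe set of the gene ran in the same directions, at 2.22, 0.47 and 1.27 against eWAT in 3T3-L1, PMEF and ES adipocytes. The genes with the most similar profiles were Mtbp, Pck2 and Prdm15, at 0.11, 0.11 and 0.15.

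The other coactivators of the family were measured as well. Ppargc1b, the beta form, was higher than in eWAT in 3T3-L1 (0.90 ± 0.16) and ES adipocytes (1.29 ± 0.16) and stood at -0.18 in PMEF adipocytes (adjusted p = 0.386). Pprc1, the third family member, differed by 0.96, 0.32 and 0.44 in 3T3-L1, PMEF and ES adipocytes, each called. Esrra, a nuclear receptor through which the coactivator acts, differed by 0.96 and 0.43 in 3T3-L1 and ES adipocytes and 0.16 in PMEF (adjusted p = 0.23), and Tfam, a factor of mitochondrial DNA, by 0.97, 0.85 and -0.01 (adjusted p = 0.971). Esrrg, a related receptor gene, was lower in 3T3-L1 (-0.36), PMEF (-0.34) and ES adipocytes (-0.25), though not called in 3T3-L1 adipocytes after median centring. Esrra, Esrrg and Tfam were chosen for mention after their values were seen.

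Dio2, which makes active thyroid hormone from thyroxine, varied least. Its values were 5.36, 4.83 and 5.21 in 3T3-L1 adipocytes and 5.82, 5.74 and 5.71 in PMEF adipocytes. ES adipocytes read 6.17, 5.95 and 6.28, and eWAT 6.43, 5.52 and 5.48. The median of all probe sets lay at 5.84 to 5.98 in the arrays, so Dio2 sat at or below it in most samples, and again eWAT array 1 was the high one.

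Only the 3T3-L1 adipocytes differed from eWAT in Dio2 with all arrays in, by -0.68 ± 0.21 (adjusted p = 0.0144). Without eWAT array 1 that difference was -0.37 (adjusted p = 0.0399), without 3T3-L1 array 2 it was not called (-0.52, adjusted p = 0.0704), and it also missed after median centring (adjusted p = 0.0639) or with the arrays of both groups alone (adjusted p = 0.0514). PMEF adipocytes stood at -0.05 from eWAT with a 95% interval from -0.50 to 0.40 (adjusted p = 0.868). ES adipocytes stood at 0.33 (adjusted p = 0.222), which became 0.64 and passed without eWAT array 1 (adjusted p = 0.00188).

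Between models Dio2 was 2.01-fold higher in ES than in 3T3-L1 adipocytes, 1.004 ± 0.21 (adjusted p = 0.00139). PMEF exceeded 3T3-L1 adipocytes by 0.63 ± 0.21 (adjusted p = 0.0233), a call lost without 3T3-L1 array 2 (adjusted p = 0.105), PMEF array 1 (0.0607) or PMEF array 2 (0.0526) and after median centring (0.111). ES and PMEF adipocytes differed by 0.38 (adjusted p = 0.174), which passed without eWAT array 1 (0.0251) or with the arrays of both groups alone (0.0102). Axin2, Tmem182 and Patz1 had the closest profiles, at 0.19, 0.21 and 0.22. Of the other deiodinases, Dio1 was called in no comparison with the values as deposited. Dio3, which inactivates thyroid hormone, was higher than in eWAT in PMEF (0.80) and ES adipocytes (0.78) and at 0.16 in 3T3-L1 adipocytes (adjusted p = 0.345). All group means of Dio3, from 4.34 to 5.14, lay under 5.36, so its differences rest on a low signal.

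**Figure D3:**
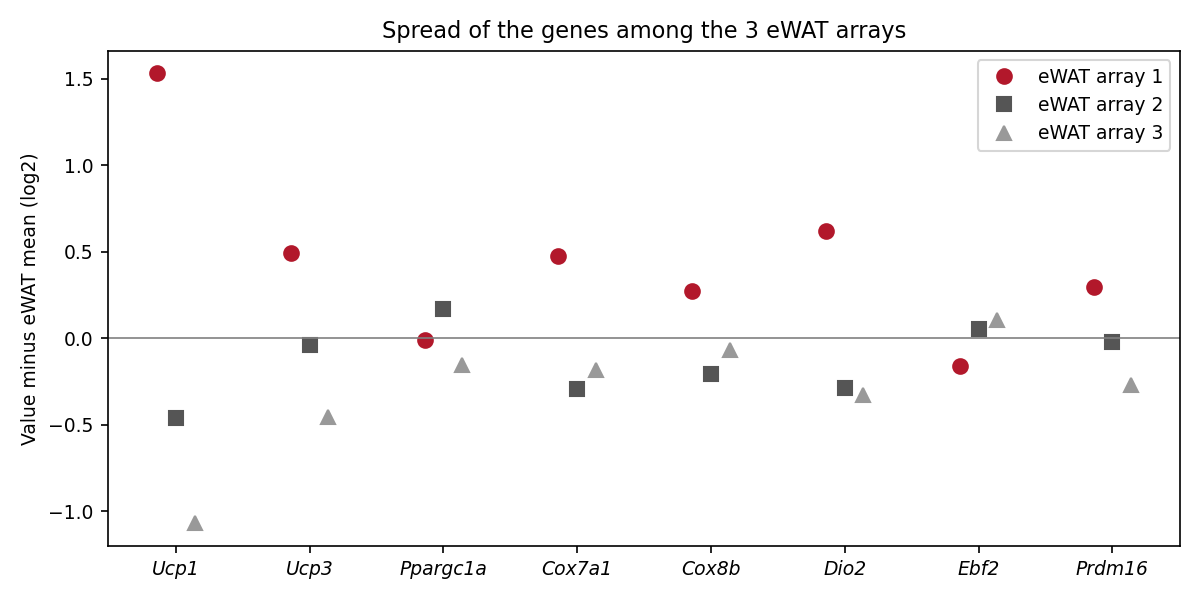
Value of each measured gene in the 3 eWAT arrays, less the eWAT mean of that gene (log2 units). Array 1 (red circles) was highest for 6 of the 8 genes, and Ucp1 had the widest spread, from 10.05 down to 7.45.

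Within eWAT, array 1 held the highest value for 6 of the 8 genes, where 39.3% of all genes were highest in that array. The exceptions were Ppargc1a, highest in array 2, and Ebf2, lowest in array 1. Leaving that array out gave 7, 7 and 7 called genes for 3T3-L1, PMEF and ES adipocytes against eWAT. The additional calls were Cox7a1 in PMEF adipocytes, at 0.46 (adjusted p = 0.000264), and Dio2 in ES adipocytes. The share of all genes called in that refit was not counted, so these counts have no background beside them. Standard errors could shrink in it, as for Cox7a1, from 0.15 to 0.075.

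Ebf2, an early B-cell factor that marks brown and beige precursors and opens chromatin at their genes, was a tissue gene here. The eWAT arrays read 8.69, 8.90 and 8.95. Values were 6.10, 6.20 and 6.10 in 3T3-L1 adipocytes, 5.86, 5.89 and 6.02 in PMEF adipocytes and 6.24, 6.57 and 6.39 in ES adipocytes. All culture arrays lay more than 2 log2 units below all eWAT arrays.

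The log2 difference of Ebf2 from eWAT was -2.92 ± 0.10 in PMEF adipocytes (7.59-fold, adjusted p = 3.08e-11), -2.72 ± 0.10 in 3T3-L1 (adjusted p = 3.39e-11) and -2.45 ± 0.10 in ES adipocytes (adjusted p = 1.92e-10). ES exceeded PMEF adipocytes by 0.48 ± 0.10 (adjusted p = 0.00109). ES exceeded 3T3-L1 adipocytes by 0.27 ± 0.10 (adjusted p = 0.0362), which was lost under quantile normalization (0.19, adjusted p = 0.14), after median centring (0.06, adjusted p = 0.56) and without 3T3-L1 array 1 (0.0935) or 3 (0.0966) or ES array 2 (0.169) or 3 (0.0737). PMEF and 3T3-L1 adipocytes differed by -0.21 without overlap of arrays (adjusted p = 0.0899). That difference passed under quantile normalization (-0.25, adjusted p = 0.0453), after median centring (-0.43, 0.00124) and with the arrays of both groups alone (0.0471). The nearest profiles to Ebf2 were those of Gmfg, Npr1 and Acacb, at 0.15, 0.16 and 0.18.

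The other early B-cell factors did not all run alike. Ebf3 fell in each model, with log2 differences from eWAT of -1.62 ± 0.12 for 3T3-L1, -1.27 ± 0.12 for PMEF and -1.75 ± 0.12 for ES adipocytes. Ebf1, which acts in the differentiation of white adipocytes too, fell in 3T3-L1 adipocytes (-0.86 ± 0.07, adjusted p = 8.77e-08) and stood at -0.07 and 0.06 in PMEF and ES adipocytes (adjusted p = 0.412 and 0.483), the former called under quantile normalization (-0.16). Ebf4 rose in PMEF (0.48) and ES adipocytes (0.72) and stood at 0.02 in 3T3-L1 adipocytes (adjusted p = 0.823).

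Prdm16, the zinc finger regulator of brown and beige identity, was likewise highest in tissue, at 7.73, 7.42 and 7.17. The values in culture were 5.71, 5.63 and 5.52 for 3T3-L1, 5.59, 5.94 and 6.05 for PMEF and 5.76, 5.99 and 5.99 for ES adipocytes. The eWAT arrays lay above all others, and the models lay close together, with PMEF overlapping both of the other models.

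Prdm16 fell in each model, with log2 differences from eWAT of -1.82 ± 0.14 in 3T3-L1 adipocytes (3.53-fold, adjusted p = 1e-07), -1.58 ± 0.14 in PMEF (adjusted p = 6.3e-07) and -1.53 ± 0.14 in ES (adjusted p = 8.95e-07). No pair of models was called: PMEF minus 3T3-L1 was 0.24 (adjusted p = 0.185), ES minus 3T3-L1 0.29 (95% interval from -0.01 to 0.60, adjusted p = 0.116) and ES minus PMEF 0.05 (adjusted p = 0.796). The first passed without PMEF array 1 (0.37, adjusted p = 0.0412) and after centring on reference genes (0.43, adjusted p = 0.0195), the second with the arrays of both groups alone (adjusted p = 0.0227). Nrarp, Klhl4 and Tuba8 had the nearest profiles, at 0.16, 0.18 and 0.18. Its paralog Mecom fell in PMEF (-1.15) and ES adipocytes (-1.26) and stood at -0.02 in 3T3-L1 adipocytes (adjusted p = 0.909).

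Ucp3, Ebf2 and Prdm16 fell in each model against eWAT, as did 9 or 10 of 10 macrophage and 6 of 6 endothelial genes. In 3T3-L1 adipocytes the exception was the macrophage gene Cd68, which rose by 0.93. Of the 12 adipocyte genes, 8, 10 and 6 fell in 3T3-L1, PMEF and ES adipocytes, and 2 rose in ES. Shares of all genes that fell were 22.5%, 21.6% and 20.9%. Among the eWAT arrays, array 1 was highest for Ucp3, Prdm16 and the endothelial list, and lowest for Ebf2 and the macrophage list. Epididymal and germ cell markers (5 measured) averaged 4.78 to 5.02 in all arrays and were called in no comparison with the values as deposited. After median centring 3 rose in 3T3-L1 adipocytes against eWAT, and 3 and 5 fell in PMEF and ES against 3T3-L1 adipocytes; under quantile normalization or on reference genes at most 3 were called in any comparison. The part of non-adipocyte cells in these differences was not tested.

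Cox7a1 and Cox8b, both complex IV isoform genes used as brown fat markers, differed most from each other in ES adipocytes, where against eWAT Cox7a1 rose and Cox8b fell. Cox7a1 was highest in ES adipocytes, at 11.44, 11.32 and 11.47. The 3T3-L1 arrays read 9.86, 9.85 and 9.87, the PMEF arrays 9.51, 9.54 and 9.42, and the eWAT arrays 9.74, 8.98 and 9.08. The ES arrays stood above all others, while the PMEF arrays fell within the eWAT range.

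Cox7a1 was 4.43-fold higher in ES adipocytes than in eWAT, 2.15 ± 0.15 (adjusted p = 5.1e-08), and exceeded 3T3-L1 by 1.55 (adjusted p = 1.41e-06) and PMEF adipocytes by 1.93 (adjusted p = 2.28e-07). The 3T3-L1 adipocytes lay above eWAT by 0.60 ± 0.15 (adjusted p = 0.00362). PMEF adipocytes stood at 0.22 from eWAT (adjusted p = 0.247). PMEF minus 3T3-L1 was -0.38 and just missed the threshold (adjusted p = 0.0501), with no overlap of arrays, and it passed without any one of the eWAT arrays (adjusted p = 0.000383 without array 1, 0.0299 without array 2 and 0.0483 without array 3). It also passed with the arrays of both groups alone (adjusted p = 0.00154) and after median centring (-0.59, adjusted p = 0.00342). The closest profiles were those of Cenpu, Narf and Krt36, at 0.18, 0.19 and 0.19.

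Cox8b was lowest in the ES adipocytes, at 9.18, 8.72 and 9.15. PMEF adipocytes read 10.83, 10.75 and 10.55, 3T3-L1 adipocytes 11.63, 11.45 and 11.78, and eWAT 11.88, 11.40 and 11.54. The 3T3-L1 and eWAT arrays overlapped, and the ES arrays lay below every other array.

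Cox8b fell in ES adipocytes against eWAT, at -2.59 ± 0.15 (6.02-fold, adjusted p = 7.03e-09), and in PMEF adipocytes, at -0.90 ± 0.15 (adjusted p = 0.000181). The 3T3-L1 difference from eWAT was 0.01, with a 95% interval from -0.31 to 0.32 (adjusted p = 0.969). ES lay below 3T3-L1 adipocytes by -2.60 (adjusted p = 7.76e-09) and below PMEF adipocytes by -1.70 (adjusted p = 6.33e-07), and PMEF lay below 3T3-L1 by -0.90 (adjusted p = 0.000127). Rin3, Naalad2 and Angpt1 had the nearest profiles, at 0.32, 0.34 and 0.35.

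The ubiquitous counterparts of these subunits varied less. Cox7a2, which takes the place of Cox7a1 outside muscle, rose against eWAT in 3T3-L1 (0.72), PMEF (0.36) and ES adipocytes (0.44), and Cox7a2l, a supercomplex factor, in 3T3-L1 (0.93) and ES adipocytes (0.67) with 0.17 in PMEF (adjusted p = 0.177). Cox8a rose by 0.27 in 3T3-L1 adipocytes, not called under quantile normalization or centring on reference genes, and stood at 0.03 and 0.11 in PMEF and ES adipocytes (adjusted p = 0.725 and 0.142).

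**Figure D4:**
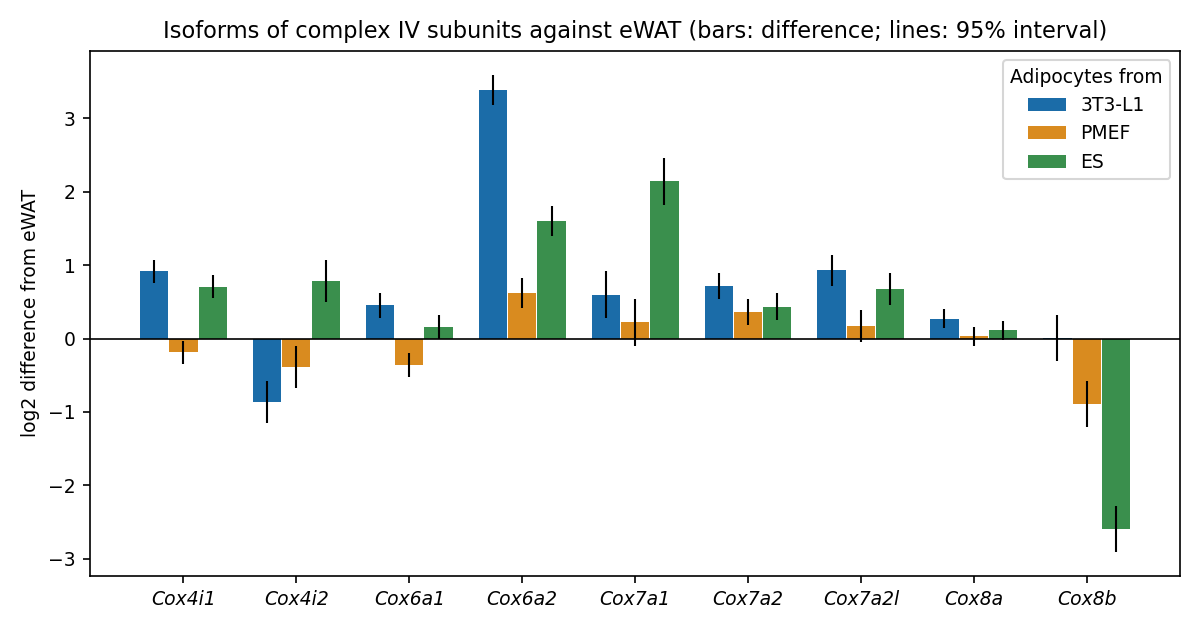
Difference from eWAT (log2) of genes for complex IV subunit isoforms in the 3 culture models; bars are limma differences over 3 arrays a group and lines their 95% intervals. Cox7a1 stood highest in ES adipocytes (2.15), Cox8b lowest in ES adipocytes (-2.59), and Cox6a2 highest in 3T3-L1 adipocytes (3.39).

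Of 13 further complex IV subunit and assembly genes, 10 rose and 1 fell in 3T3-L1 adipocytes against eWAT, 1 rose and 4 fell in PMEF adipocytes, and 9 rose and none fell in ES adipocytes. Among all genes as deposited, 30.8%, 24.7% and 28.8% were called higher in these comparisons and 22.5%, 21.6% and 20.9% lower. The 13 genes had medians of 0.45, -0.04 and 0.40 log2 units. The rises were 12 in 3T3-L1 adipocytes after median centring and 8 after centring on reference genes, when ES adipocytes had 7 rises and 1 fall. Cox6a2, another muscle and brown fat isoform, rose in each model against eWAT, by 3.39 ± 0.09 for 3T3-L1, 0.62 ± 0.09 for PMEF and 1.603 ± 0.09 for ES adipocytes. Its values were 9.56, 9.68 and 9.56 in 3T3-L1 adipocytes and 6.02, 6.25 and 6.35 in eWAT. The ubiquitous Cox4i1 differed by 0.92, -0.19 and 0.71, the PMEF call being lost on reference genes. Its partner isoform Cox4i2 fell in 3T3-L1 (-0.87) and PMEF adipocytes (-0.39, adjusted p = 0.0518 under quantile normalization) and rose in ES adipocytes (0.78). Cox10, an assembly factor gene, rose in 3T3-L1 (0.74) and ES adipocytes (0.82). In PMEF adipocytes Cox6a1 (-0.36) and the assembly gene Cox15 (-0.29) fell.

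Between models, more of these complex IV genes were called lower than higher against 3T3-L1 adipocytes. Under the other scalings the falls numbered 9 to 11 in PMEF and 6 to 9 in ES adipocytes. In PMEF against 3T3-L1 adipocytes 10 of the 13 fell and 1 rose, led by Cox6a2 (-2.78), Cox4i1 (-1.11) and Cox15 (-0.97). In ES against 3T3-L1 adipocytes 7 fell and 1 rose, the riser being Cox4i2 (1.65). In ES against PMEF adipocytes 10 rose and none fell (9 and 1 after centring on reference genes), led by Cox4i2 (1.17), Cox6a2 (0.98) and Cox4i1 (0.90). Over all genes, the called shares in the same order were 27.8%, 23.0% and 19.0% lower and 22.3%, 20.4% and 23.6% higher.

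Although Cpt1b was not analysed here, the related genes Cpt1a, Cpt1c and Cpt2 were. Cpt1a, the liver form, rose in PMEF (0.46) and 3T3-L1 adipocytes (0.24, not called under quantile normalization or on reference genes) and stood at -0.03 in ES adipocytes (adjusted p = 0.729). Cpt1c, a brain form, rose by 2.63 ± 0.09 in PMEF and 1.37 ± 0.09 in ES adipocytes and stood at 0.05 in 3T3-L1 (adjusted p = 0.701). Cpt2 fell in 3T3-L1 (-0.47) and PMEF adipocytes (-0.32) and stood at 0.04 in ES (adjusted p = 0.765).

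A further 42 genes of the thermogenic programme were listed, of which 38 were measured. Against eWAT, 11 rose and 20 fell in 3T3-L1 adipocytes (15 and 15 after median centring), 4 rose and 21 fell in PMEF adipocytes, and 10 rose and 21 fell in ES adipocytes. Of all genes as deposited, 30.8% were called higher and 22.5% lower in 3T3-L1 adipocytes, 24.7% and 21.6% in PMEF, and 28.8% and 20.9% in ES. Median differences of the 38 genes were -0.25, -0.43 and -0.27. Between models 11 rose and 15 fell in PMEF against 3T3-L1 adipocytes (9 and 22 after median centring), and 9 rose and 11 fell in ES against 3T3-L1 adipocytes (7 and 17). In ES against PMEF adipocytes 16 rose and 6 fell, or 12 and 11 after centring on reference genes. In the same order, 22.3%, 20.4% and 23.6% of all genes were called higher and 27.8%, 23.0% and 19.0% lower.

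**Figure D5:**
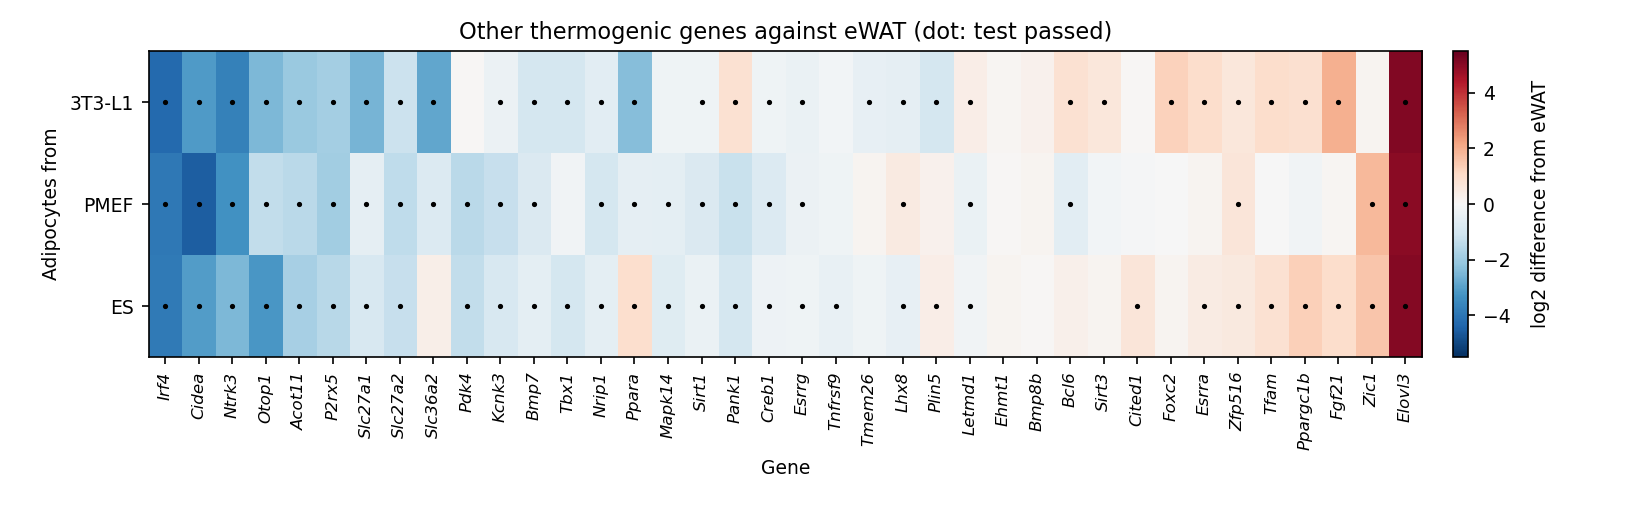
Difference from eWAT (log2, blue lower and red higher) of 38 further thermogenic genes in each culture model, ordered by their mean difference, with dots where the limma test was passed. Irf4, Cidea and Ntrk3 stood at the low end, and Elovl3 at the high end with about 5 log2 units in each model.

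Cidea, a lipid droplet protein gene and brown fat marker, read 10.90, 10.32 and 10.42 in eWAT. It read 7.44, 7.505 and 7.31 in 3T3-L1, 5.99, 5.89 and 6.13 in PMEF and 7.51, 7.51 and 7.46 in ES adipocytes. Its differences from eWAT were -3.13 ± 0.12, -4.54 ± 0.12 and -3.06 ± 0.12 (adjusted p = 1.15e-10, 6.16e-12 and 3.08e-10). The tissue thus stood far above each model, without overlap, and ES exceeded PMEF adipocytes by 1.49.

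Elovl3, a fatty acid elongase gene induced by cold in brown fat, ran the other way. It read 10.82, 10.76 and 10.63 in 3T3-L1, 10.66, 10.53 and 10.61 in PMEF and 10.82, 10.48 and 10.82 in ES adipocytes, against 6.60, 5.32 and 5.03 in eWAT. The differences were 5.09 ± 0.28, 4.95 ± 0.28 and 5.06 ± 0.28 (adjusted p = 3.5e-09, 6.9e-09 and 6.8e-09), and eWAT array 1 was again the highest of its group. Brown fat markers therefore split, with Cidea high in tissue and Elovl3 high in culture.

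Irf4, a factor of the fasting and cold response that lymphoid and myeloid cells also express, fell in each model, at -4.27, -3.93 and -3.88 in the same order (SE 0.58 each). Its eWAT values of 6.50, 9.22 and 9.80 were lowest in array 1. Ntrk3, a neurotrophin receptor gene, fell to differences of -3.71, -3.32 and -2.47 (SE 0.09), and Otop1, a proton channel gene of brown fat, to -2.49, -1.37 and -3.19 (SE 0.21).

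Rises were fewer. Fgf21, a hormone of the fasting and cold response, was higher in 3T3-L1 (1.98 ± 0.15) and ES adipocytes (0.97 ± 0.15) and stood at 0.11 in PMEF adipocytes (adjusted p = 0.599). Foxc2, a forkhead factor linked to brown fat, rose in 3T3-L1 adipocytes alone (1.26 ± 0.12). Zic1, a marker of classical brown rather than beige fat, rose in PMEF (1.78 ± 0.09) and ES adipocytes (1.53 ± 0.09) and stood at 0.14 in 3T3-L1 (adjusted p = 0.222, called after median centring at 0.36). Zfp516, a zinc finger activator of Ucp1, rose in each model against eWAT (0.64, 0.65 and 0.53 in 3T3-L1, PMEF and ES adipocytes).

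Among the models, Ppara, a nuclear receptor of fatty acid oxidation, had the largest difference of the 38 genes. It read 5.01, 5.204 and 5.46 in 3T3-L1, 7.28, 6.88 and 7.08 in PMEF, 8.57, 8.38 and 8.57 in ES adipocytes and 8.01, 7.33 and 7.42 in eWAT. It was higher than in 3T3-L1 adipocytes by 1.86 in PMEF and 3.28 in ES adipocytes. The amino acid transporter gene Slc36a2, a brown adipocyte surface marker, ran alike, higher by 2.10 and 3.16, and so did the fatty acid transport gene Slc27a1, by 2.07 and 1.67. Lower than in 3T3-L1 adipocytes were the pantothenate kinase gene Pank1 (-2.07 in PMEF and -1.82 in ES) and Pdk4, which restrains pyruvate use (-1.55 and -1.43). Fgf21 was lower than in 3T3-L1 adipocytes in both other models (-1.87 in PMEF and -1.005 in ES), as was Foxc2 (-1.30 and -1.12). Between ES and PMEF adipocytes, Ppargc1b (1.47) and Ppara (1.42) rose, and Otop1 (-1.82), Lhx8 (-0.95) and Tbx1 (-0.76) fell.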

How the data were processed

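The values were log2 probe set intensities as the authors deposited them in the series table. The normalization behind them was not given in the sources used here. Per the labels' protocols, TRIzol served for the RNA, and a whole-transcript kit for biotinylated cDNA. Of 35556 probe sets, 21789 carried 1 gene symbol, 1621 several and 12146 none in the platform annotation, and 21698 matched RefSeq. The brightest single-symbol probe set stood for each of 19938 genes. Differences came from 1 limma fit (version 3.58.1, R 4.3.3) of 4 group means over 12 arrays, with 8 residual and 4.88 prior degrees of freedom, called at an adjusted p of 0.05. The code was tested on simulated data. Arrays per group (3) limit the precision. Genes were named by rule: all listed genes and paralogs, the 3 largest rises and falls called in each further list, Cidea and Elovl3, and the 3 nearest profiles to each member. Marker lists are mostly given as averages. Other names were chosen after their values were seen. The members and lists were chosen with earlier results of these data known. Adrb3 and a few listed genes without a single-symbol probe set were not analysed here. Alternatives covered quantile normalization, centring, leaving out the 33.3% of genes with the lowest means, probe set averages, a trended robust variance, fits of 2 groups alone, the replicate number as a block, and each array left out.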

Additional observations from a re-analysis of the deposited data

How the results depend on the processing

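The 48 comparisons of a listed gene (8 genes, 6 comparisons) were refitted under up to 21 alternatives, 966 fits in all. Of these, 919 kept direction and call, 14 lost the call, 21 gained one and 12 turned direction, and 0 of the turned results had been called. Many of these fits could not turn direction, so the tally overstates how firmly directions were tested. Leaving out an array of neither compared group, the replicate block, the trended variance, the 2-group fits and the filter on dim genes kept each difference unchanged. Only its standard error or adjusted p could move there. Cox8b in 3T3-L1 adipocytes against eWAT turned to -0.17 under quantile normalization and -0.14 on reference genes, and spanned -0.095 to 0.145 with single arrays left out. Ucp3 in ES against 3T3-L1 adipocytes turned to -0.0705 under quantile normalization and -0.19 after median centring (-0.0217 to 0.0344 with single arrays left out). Prdm16 in ES against PMEF adipocytes turned to -0.14 on reference genes (-0.0802 to 0.149), and Dio2 in PMEF adipocytes against eWAT spanned -0.215 to 0.259. The cause was not tested. The numbers of listed and further thermogenic genes called stayed within 1.5 times under all alternatives run. For counts near the list size that band could not be exceeded upward. Called listed genes numbered 6 to 7 in each comparison with eWAT. Between models they numbered 4 to 7 in PMEF against 3T3-L1, and 5 to 7 in ES against 3T3-L1 and in ES against PMEF. Median centring moved the median of all genes in 3T3-L1 adipocytes against eWAT from 0.05 to 0.26, and reference gene centring moved it to -0.10. Of the 9 reference genes measured, Hprt included, 7, 6 and 7 were called in 3T3-L1, PMEF and ES adipocytes against eWAT. Centring on them thus rests on genes that mostly differed themselves. Shares of all genes called were not counted under the alternatives. Replicate numbers were not stated to pair the samples. Deviations correlated between -0.137 and 0.108 for same-numbered arrays and between -0.113 and 0.152 for others. With 3 arrays a group these correlations showed no pairing but cannot exclude a weak one. With the replicate block, 7, 6 and 6 listed genes were called against eWAT and 6, 6 and 5 between models, and the block changed 1 call, Cox7a1 in PMEF against 3T3-L1 adipocytes (-0.38, adjusted p = 0.0435). By its mean over the 12 arrays, no listed gene lay among the dimmest 33.3% of genes (mean under 5.36). In 3T3-L1 adipocytes, however, Ucp1 (4.65) and Dio2 (5.13) averaged less than that limit. Among further named genes, so did Irf4 in each model (4.23 to 4.62) and Zic1 in eWAT (4.64). Gatm and Ppara did so in 3T3-L1 adipocytes (4.64 and 5.23). Differences from such means rest on a low signal. Dio2 and the culture levels of Prdm16 were near the array medians, where small differences are hardest to measure.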

Other observations

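With the values as deposited, genes of heat-producing cycles that do not need uncoupling protein 1 were called about as often as genes at large. Of 13 such genes, 3 rose and 4 fell in 3T3-L1 adipocytes against eWAT, 4 rose and 3 fell in PMEF adipocytes, and 3 rose and 5 fell in ES adipocytes. Of all genes, 53.3%, 46.3% and 49.7% were called in either direction. After median centring 8 rose and 4 fell in 3T3-L1 adipocytes, where the share of all genes called was not counted. In the creatine cycle, Gatm, which makes the creatine precursor, fell in each model, at -3.60 ± 0.16, -3.04 ± 0.16 and -1.89 ± 0.16 from eWAT in that order, while the creatine transporter gene Slc6a8 rose by 1.77 ± 0.09, 1.35 ± 0.09 and 0.49 ± 0.09. The creatine kinase gene Ckb fell in 3T3-L1 adipocytes (-2.25 ± 0.20), with values of 7.94, 7.13 and 6.88 against 9.72, 9.59 and 9.41 in eWAT. It stood at 0.20 and 0.19 in PMEF and ES adipocytes (adjusted p = 0.438 and 0.455).

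Gpd2, the mitochondrial arm of the glycerol phosphate shuttle, separated the models instead. It read 10.29, 10.20 and 10.18 in 3T3-L1 adipocytes and 10.44, 10.17 and 10.26 in eWAT. The PMEF arrays read 8.03, 8.19 and 8.21 and the ES arrays 7.77, 7.76 and 7.69, without overlap with either of the first groups. The differences from eWAT were -2.14 ± 0.08 in PMEF, -2.55 ± 0.08 in ES and -0.06 ± 0.08 in 3T3-L1 adipocytes (adjusted p = 0.564, called at -0.22 under quantile normalization). Pm20d1, whose secreted enzyme makes uncoupling N-acyl amino acids, fell in 3T3-L1 (-1.90) and ES adipocytes (-1.24) and rose in PMEF adipocytes (0.43). The calcium pump gene Atp2a2 rose in 3T3-L1 (0.95) and ES adipocytes (0.45) and stood at 0.01 in PMEF adipocytes (adjusted p = 0.88). Gamt, the second enzyme of creatine synthesis, fell in each model (-1.04, -0.44 and -1.19). Smaller rises were those of Atp2a1 in 3T3-L1 adipocytes (0.39) and of Ckmt1 in PMEF (0.39) and ES adipocytes (0.25).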
